A study of Rattus norvegicus with 18 samples.

Results

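Kidneys of stroke-prone spontaneously hypertensive rats (SHRSP) were compared with kidneys of normotensive Wistar-Kyoto (WKY) rats at 3 weeks of age. The members were chosen by their sample labels and were the 3 arrays labelled SHRSP and the 3 arrays labelled WKY at that age, 6 of the 18 arrays of the series. The pair is not among the comparisons that the study lists. The other 12 arrays held WKY rats and SHRSP at 6 weeks and spontaneously hypertensive rats (SHRs), the strain from which SHRSP were derived, at both ages. The strains were WKY/Izm, SHR/Izm and SHRSP/Izm. Before use the younger animals spent 2 days, and the older ones 1 week, at the authors' institution. No group was treated, and the sex of the rats was not given in the sources used here. At these ages the hypertensive strains are taken to be in a pre-hypertensive state, so the comparison asks which kidney genes already differed.

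RNA of each kidney sample was labelled with cyanine-3 and hybridized to a one-colour array of 60-base probes. Each array was scaled by its own 75th percentile, taken over the spots that were well above background. The log2 of the signal over that percentile is called the scaled log2 signal, so that 0 stands for the percentile. A difference is the mean of the arrays labelled SHRSP minus the mean of those labelled WKY. On the 6 arrays the percentile was 1857 to 3013 intensity units before scaling, and 72% to 76.9% of the spots were well above background. The lowest percentile was that of SHRSP array 2. Correlations between arrays of the same group, over the probes tested, were 0.9950 to 0.9969 for WKY rats and 0.9922 to 0.9941 for SHRSP. Over the same probes, which leave out most dim ones, the median standard deviation (SD) was 0.116 in WKY rats and 0.184 in SHRSP on the log2 scale. Precision is limited by the number of arrays, and an exact permutation test of 3 against 3 arrays cannot give a p below 0.10, so that single genes were tested with limma, which pools the spread of all probes and all 6 groups.

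The arrays of the groups were not mixed over the slides. WKY arrays 1 to 3 lay on slide 1 with SHR array 1, SHRSP arrays 1 and 2 on slide 2 with SHR arrays 2 and 3, and SHRSP array 3 on slide 3 with the WKY arrays of 6 weeks. No slide held both groups. Slides 1 and 2 were scanned on the same day, so that only this day held both groups, as 2 SHRSP arrays and 3 WKY arrays.

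The labels of the strains went against each other between the ages at some probes. Agtrap, which encodes a protein that binds the type 1 angiotensin II receptor and promotes its removal from the cell surface, was far lower on the arrays labelled SHRSP at 3 weeks, at -3.59, -4.18 and -3.97, than on those labelled WKY, at 1.41, 1.40 and 1.54. At 6 weeks the difference from WKY rats was 0.25 on the arrays labelled SHRSP and -4.65 on those labelled SHR. Ephx2, Hba-a3 and Haghl had the same layout: low with the label SHRSP at 3 weeks and with the label SHR at 6 weeks, and near WKY rats with the 2 other labels. Vegfb, Apoh and Rxrg had the opposite layout. Vegfb, a vascular growth factor, differed from WKY rats by -0.27 on the arrays labelled SHRSP at 3 weeks and by -0.12 on those labelled SHR at 6 weeks. With the 2 other labels it was not well above background, at least 97.7-fold lower with the label SHR at 3 weeks and at least 84.6-fold lower with the label SHRSP at 6 weeks. For Apoh, which encodes a phospholipid-binding plasma protein, the values in the same order were -0.22, 0.09, at least 23.8-fold lower and at least 22.9-fold lower. Differences at 1 age share their WKY arrays. Whether strains differed with age at these genes or the labels of 1 age differ from those of the other was not tested. All groups are therefore named by their labels, also where only SHRSP, SHR or WKY rats is written.

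**Figure D1:**
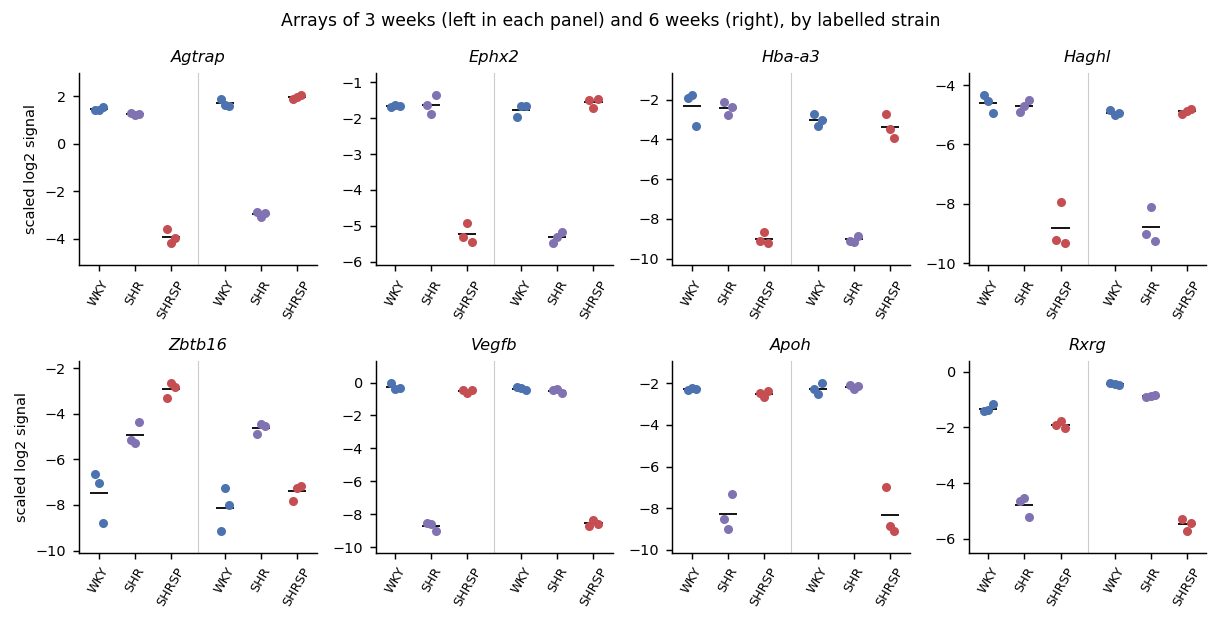
Scaled log2 signal of 8 genes on all 18 arrays, with 3 points per labelled strain and age and a bar at the mean; arrays of 3 weeks are left of the grey line and arrays of 6 weeks right of it. Agtrap, Ephx2, Hba-a3 and Haghl are low with the label SHRSP at 3 weeks and with the label SHR at 6 weeks, whereas Vegfb, Apoh and Rxrg are low with the labels SHR at 3 weeks and SHRSP at 6 weeks; Zbtb16 is highest with the label SHRSP at 3 weeks.

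As background, the kidney sets blood pressure through angiotensin, through salt and water transport along the nephron, and through lipid mediators made from arachidonic acid. Cytochrome P450 enzymes of the Cyp4a family make some of these mediators, and epoxide hydrolases break down others, the epoxides. The rat kidney is still growing at weaning, when cell division is falling and tubules are taking on adult enzymes and transporters.

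Of 20120 probes tested, 111 (0.552%) had a fitted difference of more than 4-fold with an adjusted p under 0.05 and are called probes below. A total of 71 (0.353%) were higher and 40 (0.199%) were lower with the label SHRSP. After quantile normalization the split was 61 higher and 53 lower, or 53.5% higher in place of 64.0%. At an adjusted p under 0.05 without a fold limit, 6059 probes (30.1%) differed. The median difference of all probes tested was 0.050. The called probes carried 72 different gene symbols. For 47 called probes the dim group had 0 arrays well above background, so that only a bound on their fold is given in the text. The bound was above 4-fold for 17 of the 47 and was lower, or could not be given, for the other 30. After dim signals were lifted to the lowest one that passes on their array 79 probes were called, and with normexp background correction 42.

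With scan day as a block 110 probes were called, and with slide as a block, where the groups are joined only through the SHR arrays, 106, of which 81 were among the 111. Within the scan day that held both groups 111 were called, of which 100 were among the 111. The counts at an adjusted p alone were 3559, 700 and 836 in the same order. Most of the probes past the 4-fold limit were thus shared by these fits, while far fewer small differences passed the test. The fits with scan day as a block, within the shared scan day and without SHRSP array 3 are not separate checks. They give the same difference for each probe, since each takes SHRSP array 3 out of the difference, and vary only in the spread and the probes tested. Where a fit other than the main one ended the test of a gene given by its brightest probe, the highest adjusted p over the other fits is given with its fit. Gene symbols are current RefSeq symbols.

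**Figure D2:**
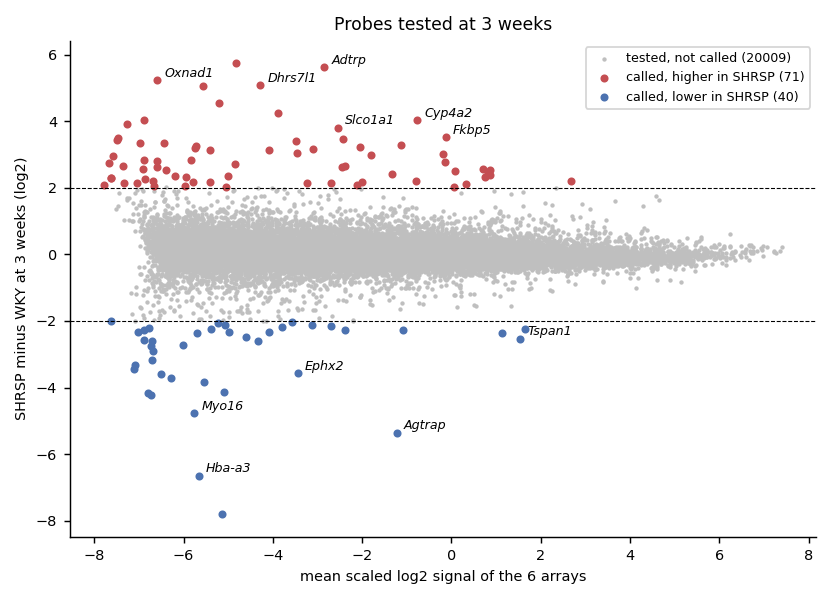
Each point is a probe tested, with the mean scaled log2 signal of the 6 arrays on the horizontal axis and the difference SHRSP minus WKY on the vertical axis, and dashed lines at 2 and -2, the 4-fold limits. Of the called probes 71 were higher and 40 lower, and most of them lay left of the highest signals.

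The highest named gene was Adtrp, an androgen-dependent regulator of tissue factor pathway inhibitor, the brake on the first step of blood clotting. Its scaled log2 signal was -5.55, -5.57 and -5.86 on the WKY arrays and 0.19, -0.16 and -0.14 on the SHRSP arrays. Every SHRSP array lay far above every WKY array, and the spread within each group was small. The difference was 5.62 ± 0.108 (SE, n = 3 and 3), or 49.2-fold (limma, adjusted p = 2.65e-13), and it was 4.55 with normexp. Oxnad1, an oxidoreductase, was not well above background in WKY rats and was at -4.34, -4.32 and -3.26 in SHRSP, at least 8.34-fold higher. Dhrs7l1, related to a short-chain dehydrogenase, was at -6.75, -6.15 and -7.57 in WKY rats, where 2 of 3 arrays were well above background, and at -1.89, -1.91 and -1.43 in SHRSP. The groups lay 33.8-fold apart as fitted (adjusted p = 2.69e-08), a difference of 5.08 that was 3.37 with normexp. Spock2, a secreted proteoglycan, was 9.39-fold higher by its brighter probe and at least 15.9-fold higher by a dimmer one.

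An "at least" fold compares the mean of the bright group with the dim arrays after raising them to the lowest signal that passed as well above background there. It holds for the signals as deposited. Normexp background correction adds an offset of 50 intensity units, and fitted differences at dim probes were then smaller, such as -3.09 for Hba-a3 and 2.12 for Oxnad1. Serpina3m, of the serine protease inhibitor family, was at least 4.45-fold higher, and Tp73, a transcription factor related to p53, at least 4.79-fold higher. The sterol hydroxylase Cyp8b1 was at least 2.48-fold higher and the ion channel cofactor Nalf1 at least 2.41-fold higher (limma, adjusted p = 1.81e-04, and 0.0838 with slide as a block). The transporter Slc49a3 was at -5.30, -5.21 and -5.03 in WKY rats and at -1.99, -1.46 and -1.88 in SHRSP, 10.6-fold higher, or 3.40, and 2.67 with normexp. Its dimmer probe, well above background on 1 of 3 WKY arrays, gave 3.62-fold (limma, adjusted p = 0.00321).

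The chloride channel Cftr is opened by cyclic AMP and moves salt across epithelia. One probe of it was at -6.25, -6.0 and -5.80 on the WKY arrays and at -2.30, -1.40 and -1.56 on the SHRSP arrays. All SHRSP arrays were above all WKY arrays, and the difference of 4.26 ± 0.297 was 19.2-fold (limma, adjusted p = 1.82e-07). Its size depended on the background correction and was 2.76 with normexp. Another Cftr probe lay near background in both groups, not well above it, and was not tested.

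The lowest named gene with a measured level in both groups was Agtrap, given above array by array. The SHRSP arrays lay 41.1-fold lower, a difference of -5.36 ± 0.124 (limma, adjusted p = 2.22e-12). Ephx2 encodes soluble epoxide hydrolase, which breaks down vasodilator epoxides of arachidonic acid. Its signal was -1.68, -1.65 and -1.66 in WKY rats and -5.32, -4.93 and -5.44 in SHRSP. The WKY arrays were nearly equal and the SHRSP arrays were 11.9-fold lower (adjusted p = 1.08e-09), a difference of -3.57 that was -2.66 with normexp. Hba-a3, a copy of the alpha-globin gene, was at -1.91, -1.79 and -3.33 in WKY rats and not well above background in SHRSP, at least 26.5-fold lower. Hba-a1, another alpha-globin gene, was at 6.50, 6.48 and 5.94 in WKY rats and at 5.92, 6.45 and 5.55 in SHRSP. These groups overlapped (difference -0.33, adjusted p = 0.280), so the drop at Hba-a3 was not shared by the Hba-a1 probe.

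The probes behind these calls are shown because a difference at 1 probe of 60 bases can come from the level of an RNA or from its match to the probe, which were not told apart here. Each is printed 5′ to 3′ with its rn4 position as the array files give it. The files list the coordinates of some probes in descending order, and for 95.2% of 16833 probes whose gene was found in the RefSeq table this order gave the strand of the gene. The Agtrap probe lies at chr5:165154364-165154423 and the Ephx2 probe spans chr15:45535737-45538220, both on the minus strand. The Hba-a3 probe is at chr10:15559461-15559520 and the Hba-a1 probe at chr10:15584360-15584419, both on the minus strand, and they share no run longer than 8 bases. The Adtrp probe is at chr17:28879511-28879570 on the plus strand.
Agtrap probe: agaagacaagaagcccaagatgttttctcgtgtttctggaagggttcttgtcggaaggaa
Ephx2 probe: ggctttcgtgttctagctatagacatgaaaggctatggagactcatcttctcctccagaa
Hba-a3 probe: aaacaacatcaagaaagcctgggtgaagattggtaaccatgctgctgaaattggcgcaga
Hba-a1 probe: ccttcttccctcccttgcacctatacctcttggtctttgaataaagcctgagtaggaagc
Adtrp probe: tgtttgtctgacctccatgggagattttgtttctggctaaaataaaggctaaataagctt

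Several further genes were lower with the label SHRSP. Myo16, an unconventional myosin, was at -3.46, -3.33 and -3.31 in WKY rats and not well above background in SHRSP, at least 13-fold lower. The receptor tyrosine kinase Ros1 was at least 5.14-fold lower, Haghl, a relative of glyoxalase II, at least 5.51-fold lower, and Micb, a relative of class I histocompatibility genes, at least 3.12-fold lower (limma, adjusted p = 5.54e-05, and 0.0938 with slide as a block). Igsf7 l1 was at least 3.23-fold lower. Tspan1, a membrane protein of the tetraspanin family, was bright in both groups, at 2.78, 2.83 and 2.82 in WKY rats and at 0.30, 0.37 and 0.15 in SHRSP. The groups did not overlap, and the difference was -2.54 ± 0.128 (limma, adjusted p = 5.96e-09).

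Albfm1, of the albumin family, was at 2.72, 2.80 and 2.80 in WKY rats and at 0.43, 0.63 and 0.55 in SHRSP, 4.71-fold lower, and a second probe gave 5.13-fold. The keratin Krt76 was 5.56-fold lower and Tnfrsf9, a receptor of activated immune cells, was 5.0-fold lower. With normexp these differences of -2.48 and -2.32 were -1.40 and -1.51, so that neither passed the 4-fold limit. Probes of the same gene did not always tell the same. For the carboxylesterase Ces1e the dim probe was 5.03-fold lower, whereas at the bright probe the groups overlapped (difference -0.23, adjusted p = 0.265). For Ky, a muscle protease, the bright probe was 3.36-fold lower (-1.75, and -0.92 with normexp) and the dim one at least 2.49-fold lower. Outside the naming rule and chosen after its values were seen, an unnamed probe on chromosome 8 was at least 56.4-fold lower and an unnamed probe on chromosome 1 at least 33.5-fold higher.

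**Figure D3:**
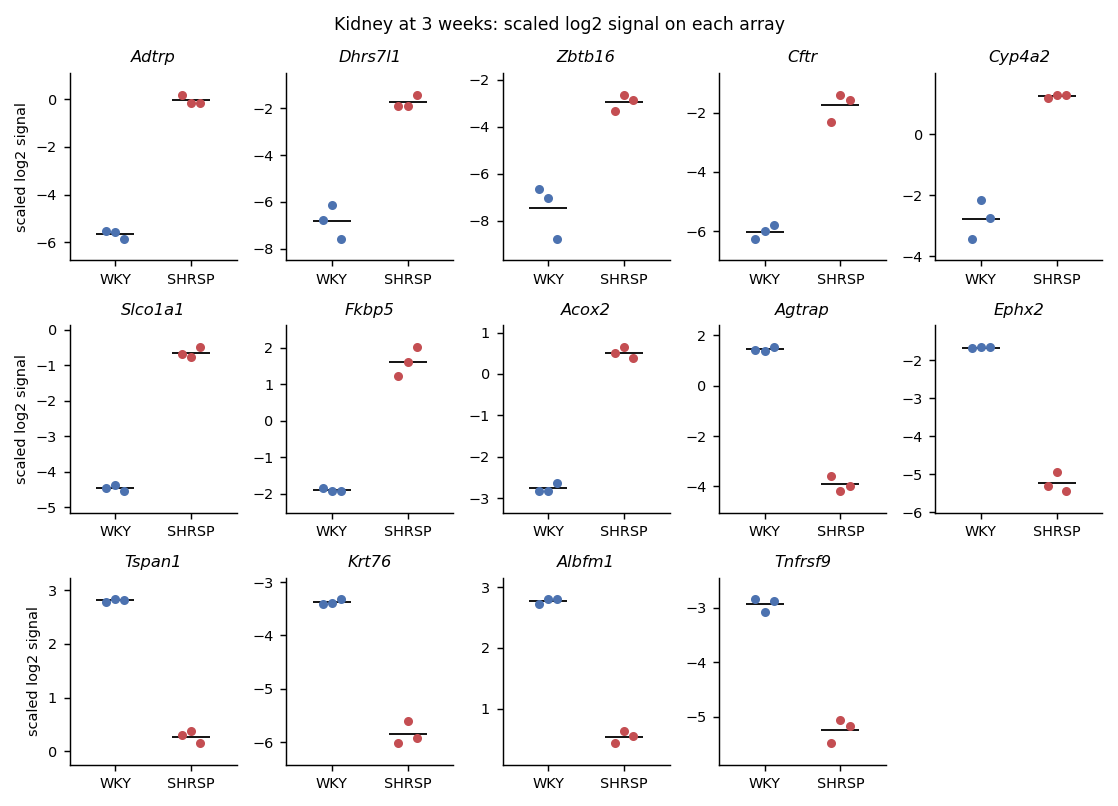
Scaled log2 signal of 14 genes on each of the 3 WKY and 3 SHRSP arrays at 3 weeks, with a bar at the mean of each group; each panel has its own vertical axis, which does not start at 0. The genes were picked from those called, and the distance between the bars runs from 2.24 for Albfm1 to 5.62 for Adtrp.

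Of 12423 genes tested, each by its brightest probe, 3910 (31.5%) differed at an adjusted p under 0.05, 2146 (17.3%) higher and 1764 (14.2%) lower with the label SHRSP, and the median difference was 0.04. With the 75th percentile over all probes 2098 were higher and 2514 lower, after quantile normalization 2211 and 2483, 1307 and 1544 without SHRSP array 2 and 1440 and 1038 without WKY array 1, so that which direction held more genes depended on the scaling and the arrays. Without SHRSP array 1 the counts were larger, at 3528 higher and 1862 lower of 12730, with a median of 0.09. Without SHRSP array 3 they were 1469 and 1202 of 12480. Leaving out WKY array 2 gave 1440 higher and 1840 lower of 12557, and leaving out WKY array 3 gave 1885 and 1388 of 12447. With array weights 3211 were higher and 2712 lower. With scan day as a block 1321 were higher and 1068 lower, with slide as a block 177 and 275 with a median of -0.06, and within the shared scan day 325 and 219 of 12480. These are the values against which the gene lists are read. With scan day or slide as a block and within the shared scan day calls fell over all genes, not only on the lists. Kidney samples hold many cell types, and fewer cells of a type cannot be told apart from less RNA per cell in any list.

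Among the genes of steroid and thyroid hormone metabolism and response, 12 of 30 tested were higher and 6 lower, with a median of 0.18, and 5 passed the 4-fold limit upward and 1 downward. Fkbp5 encodes a co-chaperone of the glucocorticoid receptor that glucocorticoids induce. It was at -1.85, -1.91 and -1.92 in WKY rats and at 1.24, 1.61 and 2.02 in SHRSP. All SHRSP arrays lay above all WKY arrays, 11.4-fold on average (limma, adjusted p = 1.43e-07), and the difference of 3.52 was 2.52 with slide as a block. Zbtb16, a transcriptional repressor, was at -6.65, -7.02 and -8.77 in WKY rats, where 1 of 3 arrays was well above background, and at -3.32, -2.64 and -2.84 in SHRSP. The fitted difference of 4.55 ± 0.513 passed the test (adjusted p = 2.37e-05), but not with slide as a block, where it was 4.15 (adjusted p = 0.0573). Its size is uncertain, since it was 3.90 without WKY array 3, 3.94 with dim signals lifted and 2.37 with normexp.

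The enzymes of this list went both ways. Sult1b1, which attaches sulfate to thyroid hormones and phenols, was 2.52 higher, and the aldo-keto reductase Akr1c12l1, at -3.86, -3.55 and -3.84 in WKY rats and -1.18, -1.09 and -1.16 in SHRSP, was 2.61 higher. Hsd17b13, a lipid droplet protein, was at -5.34, -5.55 and -5.15 in WKY rats and not well above background in SHRSP, at least 3.30-fold lower. Hsd17b2, which inactivates estradiol and testosterone, fell by 1.45 (adjusted p = 6.52e-06), and the thyroid hormone deiodinase Dio1 fell by 0.45 (adjusted p = 0.00331, and 0.286 with slide as a block). Of these only Hsd17b13 was named by the rule, and the others were chosen after their values were seen. With slide as a block 6 genes of the list were higher and 2 lower with a median of -0.03, and within the shared scan day 8 were higher and 2 lower with a median of 0.19.

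Fatty acid oxidation and peroxisomes gave 15 higher and 5 lower of 37 genes tested, with a median of 0.21. The peroxisomal oxidase Acox2, which acts on branched fatty acids and bile acid precursors, was at -2.83, -2.82 and -2.64 in WKY rats and at 0.50, 0.65 and 0.39 in SHRSP. The SHRSP arrays were 9.69-fold higher (limma, adjusted p = 1.68e-11). The medium-chain acyl-CoA synthetase Acsm5 rose by 1.83, with 0.46 at its dimmer probe, and Cpt1a, the gate of mitochondrial fatty acid uptake, by 0.72 (adjusted p = 2.76e-05, and 0.110 with slide as a block), the last chosen after its value was seen.

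Pdk4, which turns pyruvate away from oxidation, was well above background on 2 of 3 WKY arrays and rose by 1.22 (limma, adjusted p = 0.00115, and 0.147 with slide as a block) and by 0.52 with normexp. The mitochondrial trifunctional subunit Hadhb fell by 0.52 (adjusted p = 0.0109, and 0.320 with slide as a block) and the fatty acid binding protein Fabp3 by 0.81 (9.41e-04, and 0.215 with slide as a block), both chosen after their values were seen. With slide as a block 4 genes were higher and 1 lower with a median of 0.20, and within the shared scan day 5 were higher and 0 lower with a median of 0.20.

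Of the arachidonic acid genes 8 were higher and 8 lower of 32 tested, with a median of 0.08. Cyp4a2, which makes the vasoconstrictor 20-HETE in the rat kidney, was at -3.43, -2.17 and -2.75 in WKY rats and at 1.17, 1.29 and 1.28 in SHRSP. The WKY arrays were spread and the SHRSP arrays nearly equal, and the difference was 4.03 ± 0.210, or 16.3-fold (limma, adjusted p = 8.21e-09). Cyp4a8, a neighbouring gene of the family, rose by 2.33 at a probe close to that of Cyp4a2 and by 0.98 at a brighter probe. Cyp4a3, another member of the family, was at 4.63, 4.61 and 4.66 in WKY rats and at 3.60, 3.61 and 3.66 in SHRSP, so it went the other way, by -1.01 (adjusted p = 8.02e-08). The epoxygenase Cyp2j4 rose by 1.11. Ptgds, which makes prostaglandin D2, fell by 1.19 (adjusted p = 3.94e-05, and 0.0576 with slide as a block), and the cytosolic phospholipase Pla2g4a fell by 0.73 (4.74e-04, and 0.204 with slide as a block). Counts fell to 4 higher and 2 lower with slide as a block, with a median of -0.06, and to 5 higher and 4 lower within the shared scan day, with a median of 0.15. Cyp4a8, Cyp4a3 and Pla2g4a were chosen after their values were seen.

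The neighbouring Cyp4a probes are printed since members of this family are alike in sequence. They lie on the minus strand at chr5:135547423-135547482 and chr5:135547750-135547809. Their positions do not overlap, and the longest run of bases that they share is 5. Probes this close can lie in the same RNA, and whether they read different genes was not tested.
Cyp4a2 probe: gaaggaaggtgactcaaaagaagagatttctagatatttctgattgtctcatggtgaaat
Cyp4a8 probe: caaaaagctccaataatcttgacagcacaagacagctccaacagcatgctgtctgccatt

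Genes of the angiotensin system gave 3 higher and 3 lower of 16 tested, with a median of 0.15. Agt, the precursor of the angiotensins, was at -0.67, -1.14 and -1.17 in WKY rats and at -0.41, 0.38 and -0.19 in SHRSP, a rise of 0.92 (adjusted p = 0.00293, and 0.240 with slide as a block). Ace, which makes angiotensin II, fell by 0.84 at its brighter probe (limma, adjusted p = 4.65e-04, and 0.0739 within the shared scan day) and by 1.57 at the other. Prep, a peptidase that cleaves angiotensins, rose by 0.79 (adjusted p = 7.63e-05, and 0.135 with slide as a block), and Agtrap was the only member past the 4-fold limit. Within the shared scan day 2 genes of the list were higher and 1 lower, with a median of 0.17, and with slide as a block 0 were higher and 2 lower, with a median of 0.24. Without SHRSP array 1 there were 5 higher and 3 lower, and without SHRSP array 2 there were 3 and 2 with a median of 0.06.

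Of the kallikrein-kinin and natriuretic peptide genes 3 were higher and 3 lower of 11 tested, with a median of 0.28. The kininogens, from which kinins are released, need care with names. The array's Kng1 is now Kng2 and fell by 0.96 (adjusted p = 0.00141, and 0.203 with slide as a block). Kng1, the array's Kng1l1, differed by -0.62, close to the limit of the test (limma, adjusted p = 0.0492), and missed it in 12 of the other fits, with an adjusted p of up to 0.877 with slide as a block. The array's Kng2, now Kng2l1, was not well above background in WKY rats and was at -6.70, -6.68 and -6.86 in SHRSP, at least 1.22-fold higher (adjusted p = 5.34e-04, and 0.391 with dim signals lifted), and was chosen after its values were seen. The list holds the current Kng2, while the study's Kng2 is Kng2l1. The bradykinin receptor Bdkrb2 rose by 0.74 (adjusted p = 0.00557, and 0.646 with slide as a block). Blocking by slide left 0 genes of the list higher and 0 lower with a median of 0.27, and within the shared scan day 0 were higher and 1 lower with a median of 0.32. Without SHRSP array 2 the list had 1 higher and 1 lower with a median of 0.07, and without WKY array 1 it had 2 higher and 1 lower with a median of 0.26.

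The kininogen probes lie on chromosome 11, that of Kng2l1 at chr11:80172931-80172990 on the plus strand, that of Kng2 at chr11:80127589-80127648 on the plus strand and that of Kng1 at chr11:80013720-80013779 on the minus strand. They are printed so that they can be compared with each other. The probes of Kng2 and Kng1 share an unbroken run of 17 bases, in capitals, and most bases beside it match as well. The Kng2l1 probe shares runs of 8 bases with Kng2 and 6 bases with Kng1. How far each probe reads the RNA of its neighbours was not tested.
Kng2l1 probe: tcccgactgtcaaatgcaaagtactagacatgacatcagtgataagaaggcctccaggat
Kng2 probe: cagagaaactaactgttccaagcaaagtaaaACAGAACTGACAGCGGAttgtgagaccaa
Kng1 probe: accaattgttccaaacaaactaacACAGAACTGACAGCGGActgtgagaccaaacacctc

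Coagulation and fibrinolysis gave 9 higher and 3 lower of 24 genes tested, with a median of 0.20. Hrg, a plasma protein that binds heparin and plasminogen, was at -1.83, -1.57 and -1.66 in WKY rats and at 1.33, 1.21 and 1.40 in SHRSP. The groups were far apart, by 3.00 ± 0.121 or 8.01-fold (limma, adjusted p = 6.77e-10). Its other probe rose 8.27-fold. The fibrinogen chains Fgb and Fga fell by 1.36 and 0.86. Fgb was at -1.84, -2.01 and -1.44 in WKY rats and at -3.06, -3.15 and -3.16 in SHRSP, without overlap. F13b, the carrier subunit of the clot-stabilizing factor XIII, rose by 1.06 (adjusted p = 0.00101, and 0.204 with slide as a block). With slide as a block 1 gene was higher and 2 lower with a median of 0.07, and within the shared scan day 1 was higher and 2 lower with a median of 0.16.

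Retinoid and vitamin D metabolism gave 7 higher and 7 lower of 29 genes tested, with a median of 0.00. Gc encodes the plasma carrier of vitamin D and was at -5.88, -5.65 and -5.45 in WKY rats and at -2.77, -2.58 and -2.23 in SHRSP, 8.79-fold higher (limma, adjusted p = 9.75e-06), a difference of 3.14 that was 2.27 with normexp. Cyp27b1, which makes active vitamin D in the proximal tubule, was at -3.62, -3.95 and -3.44 in WKY rats and at -1.70, -2.26 and -1.68 in SHRSP. It rose by 1.79 without overlap (adjusted p = 1.94e-06). The retinol dehydrogenase Rdh16 rose by 2.41 at its brighter probe and by 1.75 at the other. The retinoic acid binding protein Crabp1, well above background on 1 of 3 SHRSP arrays, fell by 1.01 (limma, adjusted p = 3.09e-04, and 0.0836 with normexp background correction). The retinol uptake receptor Stra6 fell by 0.85 and the retinoic acid hydroxylase Cyp26a1 fell by 0.98 (adjusted p = 0.00274, and 0.149 with slide as a block), both chosen after their values were seen. Each of these fits, slide as a block and the shared scan day, had 3 genes higher and 2 lower, with medians of -0.13 and 0.00, and without WKY array 1 there were 4 higher and 5 lower with a median of 0.03.

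Glutathione and oxidant defence gave 10 higher and 8 lower of 47 genes tested, with a median of -0.06. The glutathione transferase Gsta1 was at 1.38, 1.31 and 1.40 in WKY rats and at 3.31, 3.35 and 3.35 in SHRSP. Both groups were tight, and the SHRSP arrays were 3.94-fold higher (limma, adjusted p = 4.45e-09). The bright probe of Gsta3 was 0.96 higher (limma, adjusted p = 1.39e-04, and 0.132 with slide as a block), whereas at its second probe the groups overlapped at a difference of -0.03. The sulfiredoxin Srxn1 fell by 1.18 (adjusted p = 8.45e-07). Gclm, a subunit of the enzyme that limits glutathione synthesis, was at -4.02, -4.19 and -4.16 in WKY rats and at -3.08, -3.37 and -2.07 in SHRSP, where array 3 was highest. Its rise of 1.28 (adjusted p = 0.00416) became 0.01 with slide as a block (adjusted p = 0.983). The list had 1 gene higher and 3 lower with slide as a block, with a median of -0.10, and within the shared scan day 3 were higher and 2 lower with a median of -0.02.

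Growth factors of vessel and nephron gave 13 higher and 4 lower of 50 genes tested, with a median of 0.14. Gdnf, the signal for branching of the ureteric bud, was at -5.97, -5.97 and -6.34 in WKY rats and not well above background in SHRSP, at least 1.97-fold lower (limma, adjusted p = 2.26e-04, and 0.148 with normexp background correction). Igfbp4, which holds insulin-like growth factors, was at 1.11, 0.93 and 1.07 in WKY rats and at 1.96, 2.23 and 2.19 in SHRSP, a rise of 1.09 (limma, adjusted p = 4.55e-06). Ccn2, a matrix-associated factor induced by transforming growth factor beta, rose by 1.06 (adjusted p = 0.00222) and was 0.38 higher with slide as a block (adjusted p = 0.570). Tgfb2 rose by 0.93 (adjusted p = 0.00273, and 0.177 with slide as a block). The list had 1 gene higher and 1 lower with slide as a block, with a median of 0.01, and within the shared scan day 2 were higher and 1 lower with a median of 0.17. Without SHRSP array 1 it had 20 higher and 3 lower, and without SHRSP array 2 it had 8 and 4 with a median of 0.04. Matrix and fibrosis genes gave 7 higher and 3 lower of 38, with a median of 0.06, and Spock2 was the only member past the 4-fold limit. The basement membrane collagens Col4a2 and Col4a4 went apart, at 0.67 (adjusted p = 6.55e-04, and 0.387 with slide as a block) and -0.78 (adjusted p = 3.44e-06). Of the matrix genes 1 was higher and 1 lower with slide as a block, and as many within the shared scan day, while 6 were higher and 3 lower with scan day as a block. Leaving out SHRSP array 1 gave 12 higher and 3 lower, and leaving out WKY array 1 gave 4 and 3. Leaving out SHRSP array 2 gave 5 and 4 with a median of -0.02.

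The cell division list moved most nearly in 1 direction. Of 31 genes tested 26 were lower with the label SHRSP and 2 were higher, with a median of -0.62 against 0.04 for all genes. No member passed the 4-fold limit. Ccnb1, a cyclin of mitosis, was at -3.40, -3.69 and -3.14 in WKY rats and at -4.31, -4.52 and -4.68 in SHRSP. All SHRSP arrays were below all WKY arrays, by -1.09 ± 0.146 (limma, adjusted p = 1.12e-04). Its partner gene Ccnb2 was at -3.89, -4.05 and -3.78 in WKY rats and at -4.56, -5.03 and -5.04 in SHRSP, a difference of -0.97 (adjusted p = 4.37e-04, and 0.0701 within the shared scan day). With normexp the differences of Ccnb1 and Ccnb2 were -0.70 and -0.49, and the list had 20 genes lower with a median of -0.47. Cdk1, the kinase that both cyclins activate, fell by 0.74 (adjusted p = 0.00136, and 0.118 within the shared scan day) and the topoisomerase Top2a by 0.75 (0.00593, and 0.213 within the shared scan day), both chosen after their values were seen. Bub1b, a kinase of the spindle checkpoint, fell by 1.28 (adjusted p = 0.0144), but its WKY arrays were spread from -5.66 to -4.53, and the adjusted p was 0.0591 without WKY array 3, 0.0552 without SHRSP array 3 and up to 0.264 within the shared scan day.

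Array by array, the median deviation of the 31 genes from the WKY mean of 3 weeks was 0.02, -0.18 and 0.21 on the WKY arrays and -0.51, -0.59 and -0.80 on the SHRSP arrays. The groups did not overlap. On the SHR arrays of the same age it was -0.35, -0.02 and 0.12. The 2 members that were higher were Mcm7 and Kif11. Mcm7, a subunit of the helicase that opens replication origins, was at -0.89, -1.06 and -0.94 in WKY rats and at 0.14, 0.26 and 0.15 in SHRSP, a rise of 1.15 (limma, adjusted p = 1.27e-06), while its partners Mcm2, Mcm4, Mcm5 and Mcm6 fell by 0.50, 0.39, 0.62 and 0.94 and lost the test within the shared scan day (adjusted p = 0.238, 0.346, 0.264 and 0.138). Kif11, a motor of the spindle, was 0.31 higher with overlapping groups (adjusted p = 0.0300, and 0.403 with slide as a block). Kif11 and the partners of Mcm7 were chosen after their values were seen.

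The count of falling genes depended on the fit more than the size did. With scan day as a block 16 were lower with a median of -0.57, and with slide as a block 15 with a median of -1.0. Within the shared scan day 1 was lower with a median of -0.57, and with only the 6 arrays compared 8 were lower with a median of -0.62. Without SHRSP array 3, which lay on another slide, 16 were lower. Over all 12423 genes the count of lower genes was 1764, and it was 1068 with scan day as a block, 275 with slide as a block and 319 with only the 6 arrays compared. Within the shared scan day it was 219 of 12480, and without SHRSP array 3 it was 1202 of 12480.

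Promoters of the cell division genes were searched since these genes moved together. Promoter sequences of 300 bases, mostly before the start of the gene, came from RefSeq in the GRCr8 assembly and were found for 25 of the 31 genes. The letters CCAAT, known as the binding sequence of the factor NF-Y, were present on either strand in 20 of the 25 (80.0%), against 37.6% of all 27457 promoters. The letters TTTGAA, the core of the cell cycle homology region, were present in 12 (48.0%), against 18.2% of all. Of the 20 genes with a promoter that were lower 16 had CCAAT and 11 had TTTGAA. These shares describe the list as it was made and say nothing of whether a site was bound. The promoter of Ccnb2, chr8:79981609-79981908 on the minus strand, holds 5 such matches, in capitals, which do not overlap.
Ccnb2 promoter: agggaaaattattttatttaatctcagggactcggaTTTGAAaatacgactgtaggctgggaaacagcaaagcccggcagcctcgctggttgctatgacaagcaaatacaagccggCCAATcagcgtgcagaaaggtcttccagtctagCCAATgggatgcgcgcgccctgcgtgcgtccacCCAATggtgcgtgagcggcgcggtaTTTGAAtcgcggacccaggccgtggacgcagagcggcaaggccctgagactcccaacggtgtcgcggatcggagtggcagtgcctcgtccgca

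Of 17 clock genes tested 11 were higher and 3 lower with the label SHRSP, with a median of 0.51. With slide as a block 2 were higher and 1 lower with a median of 0.30, and within the shared scan day 3 were higher and 2 lower with a median of 0.48. The 3 that were lower were Npas2 and Bmal1, which encode activators of the clock, and Nfil3, a repressor, at -0.55 (adjusted p = 0.0118, and 0.320 with slide as a block) and chosen after its value was seen. Bmal1 was at -1.19, -1.23 and -1.03 in WKY rats and at -2.44, -2.24 and -2.88 in SHRSP, a difference of -1.37 (limma, adjusted p = 3.22e-05, and 0.0637 with slide as a block), and a second probe gave -1.45. Npas2 fell by 1.67 at its brighter probe, whereas at the other the groups overlapped at a difference of 0.11.

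The repressor Per2 was at -3.35, -3.02 and -3.29 in WKY rats and at -2.03, -1.74 and -1.75 in SHRSP, a rise of 1.38 (limma, adjusted p = 1.93e-06). Tef, Dbp and Hlf are output transcription factors of 1 family that the activators switch on. Dbp was at 1.47, 1.58 and 1.49 in WKY rats and at 2.42, 2.51 and 2.50 in SHRSP, so both groups were tight and lay 0.97 apart (adjusted p = 4.47e-04, and 0.210 with slide as a block). Hlf, well above background on 2 of 3 WKY arrays, rose by 1.11. Tef rose by 1.28 (adjusted p = 0.0138), with WKY array 3 at -0.97 above the other 2 at -2.32 and -2.53. The adjusted p for Tef was 0.0625 without WKY array 1, 0.0592 without WKY array 2 and up to 0.217 within the shared scan day. Dbp and Hlf were chosen after their values were seen.

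Over the 17 clock genes the median deviation from the WKY mean was -0.02, -0.03 and 0.05 on the WKY arrays and 0.30, 0.67 and 0.59 on the SHRSP arrays. On the SHR arrays of 3 weeks it was -0.09, 0.04 and 0.13. The hour at which the kidneys were taken was not given in the sources used here, and its part in these values was not tested. The letters CACGTG, the E-box that the activators bind, were present in 5 of 16 clock promoters (31.2%), against 6.59% of all promoters. Of the 9 clock genes with a promoter that were higher 2 had it. Among the 5 was the promoter of Tef, chr7:115206577-115206876 on the plus strand, shown with the match in capitals.
Tef promoter: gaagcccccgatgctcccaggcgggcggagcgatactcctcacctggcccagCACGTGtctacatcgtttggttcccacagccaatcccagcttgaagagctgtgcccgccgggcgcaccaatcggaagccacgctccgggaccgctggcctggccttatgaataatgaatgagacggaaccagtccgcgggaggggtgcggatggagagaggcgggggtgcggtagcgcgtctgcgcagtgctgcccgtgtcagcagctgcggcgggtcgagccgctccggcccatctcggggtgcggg

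Immediate early and heat shock genes gave 6 higher and 2 lower of 22 tested, with a median of 0.20. Zfp36, which speeds the decay of inflammatory messenger RNAs, rose by 1.24 (adjusted p = 0.00426), and by 0.63 with slide as a block (adjusted p = 0.466). The chaperone gene Hspa1b was at -2.01, -1.74 and -1.88 in WKY rats and at -1.22, -0.68 and -0.93 in SHRSP, a rise of 0.94 (limma, adjusted p = 0.00471, and 0.477 with slide as a block). The list had 0 genes higher and 0 lower with slide as a block, with a median of -0.18, and within the shared scan day 1 was higher and 0 lower with a median of 0.15. Without WKY array 1 the counts were 5 and 0. Without SHRSP array 1 they were 8 and 2 of 24 tested, with a median of 0.36. Interferon and antigen presentation genes gave 5 higher and 6 lower of 34, with a median of 0.01. Cd74, the chaperone of class II molecules, rose by 0.73 (adjusted p = 1.76e-04, and 0.208 with slide as a block), while the immunoproteasome subunit Psmb8 fell by 0.66 (adjusted p = 0.0152, and 0.254 within the shared scan day). Here slide as a block gave 0 higher and 0 lower with a median of -0.07, and the shared scan day 1 higher and 0 lower with a median of 0.10. Without SHRSP array 3 there were 5 higher and 1 lower. Without SHRSP array 2 there were 4 higher and 9 lower, and without WKY array 1 there were 3 and 5, each with a median of -0.13.

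**Figure D4:**
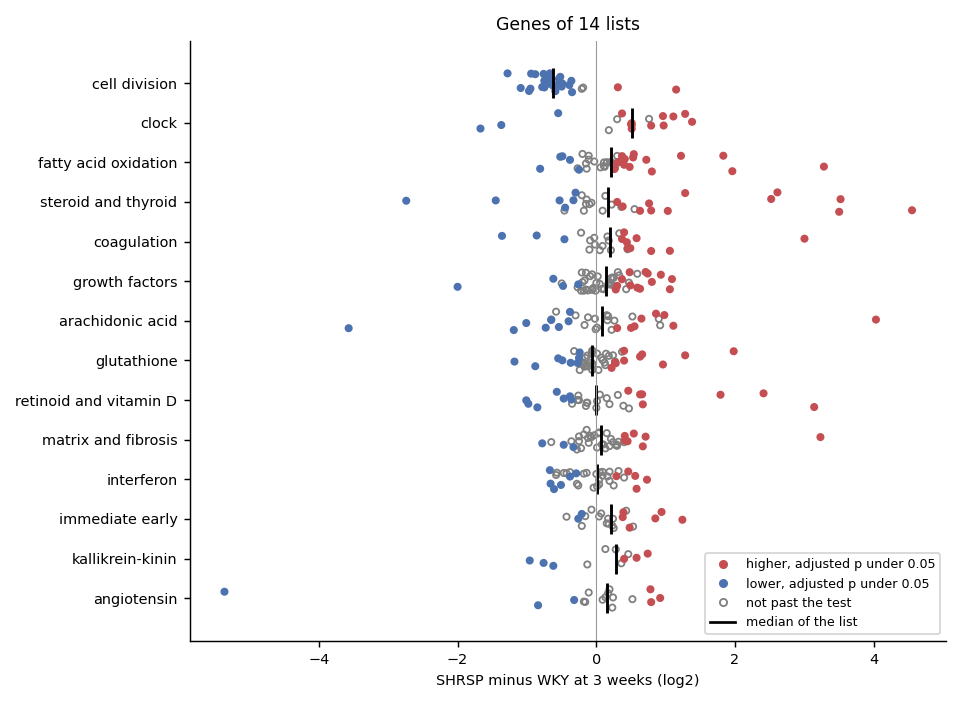
Difference SHRSP minus WKY at 3 weeks of each gene tested on 14 lists, with filled points for an adjusted p under 0.05, open points for the others and a bar at the list's median; points are spread vertically only to be seen. The median of cell division is -0.62 and that of the clock 0.51, and the other medians lie between -0.06 and 0.28.

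A further list of 13 genes was drawn from several gene groups of the study, which rest on these same samples, so that their direction is not independent evidence. Of 12 tested 4 were higher and 6 lower, with a median of -0.40. With Kng2l1, the study's Kng2, in place of the current Kng2, 5 were higher and 5 lower, with a median of -0.25, an alternative chosen after seeing the data. Agtrap, Ephx2, Hrg and Cftr passed the 4-fold limit and are described above, and Kng2l1 passed it only as fitted, with the bound given above. Myl11, a myosin light chain of fast muscle, was at -4.38, -4.74 and -4.65 in WKY rats and at -3.20, -3.24 and -3.27 in SHRSP, a rise of 1.35 (limma, adjusted p = 1.00e-05). The glucagon-like peptide receptor Glp1r fell by 0.52 (adjusted p = 0.0298) but missed the test in 9 of the other fits, with an adjusted p of up to 0.175 with normexp background correction. Rxrg, a retinoid receptor, fell by 0.57 (adjusted p = 0.0134, and 0.581 with slide as a block). Vegfb (adjusted p = 0.146) and Apoh (adjusted p = 0.736) did not pass the test, and Ryr1 was not well above background in either group and was not tested.

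Below, the brightest marker is the gene whose probe had the highest signal. Signals of different probes cannot be compared as RNA levels, so that a sum is weighted by the brightness of its probes and is compared only between arrays. Markers of the nephron were present, and 0 of 25 proximal tubule genes, 0 of 14 thick ascending limb genes, 1 of 13 distal convoluted tubule genes and 1 of 19 collecting duct genes were not above background on any of the 6 arrays. The summed scaled signal of 25 proximal tubule genes, in multiples of the array's 75th percentile, was 497, 475 and 526 in WKY rats and 535, 586 and 542 in SHRSP, with Miox as the brightest. The groups did not overlap, and 7 genes were higher and 8 lower, with a median of 0.10. Slco1a1, an organic anion transporter of the proximal tubule that androgens induce, was the only one past the 4-fold limit, at -4.46, -4.36 and -4.54 in WKY rats and at -0.69, -0.77 and -0.49 in SHRSP. The difference of 3.80 ± 0.132 was 14-fold (limma, adjusted p = 1.63e-10), and 3.15 with normexp. The 14 thick ascending limb genes, brightest at Umod, summed to 151, 153 and 166 in WKY rats and 163, 209 and 173 in SHRSP, with 2 higher and 4 lower. The counts were 5 higher and 3 lower without SHRSP array 1, and 0 higher and 5 lower without SHRSP array 2.

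The collecting duct sum was 66.8, 70.0 and 69.4 in WKY rats and 57.8, 68.7 and 48.5 in SHRSP, with 6 higher and 3 lower of 18. Its brightest gene, the water channel Aqp2, was at 5.67, 5.73 and 5.72 in WKY rats and at 5.19, 5.55 and 4.86 in SHRSP, where array 3 was lowest (difference -0.50, limma adjusted p = 0.0180, and 0.718 with slide as a block and 0.0795 without SHRSP array 3). The distal convoluted tubule sum was 14.1, 14.1 and 15 in WKY rats and 13.1, 15.8 and 14.7 in SHRSP, with Egf as the brightest gene and 2 higher and 1 lower of 11. Markers of glomerulus and endothelium, brightest at Plvap, summed to 26.1, 27.7 and 25.2 in WKY rats and 30.5, 44 and 34.2 in SHRSP, with 6 higher and 1 lower of 17 and a median of 0.32. Without SHRSP array 1, 13 of these 17 were higher with a median of 0.47, and without SHRSP array 2 the median was 0.18. Without SHRSP array 3 the collecting duct had 5 higher and 0 lower and the distal convoluted tubule 0 and 1, and without SHRSP array 1 the latter had 4 higher and 1 lower of 12. Blocking by slide left 2 proximal tubule genes higher and 1 lower, 0 of the thick ascending limb and 0 of the distal convoluted tubule past the test, 1 of the collecting duct higher, and 1 of glomerulus and endothelium higher and 1 lower.

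Markers of other tissues were looked for as well. Liver markers summed to 2.94, 2.57 and 2.92 in WKY rats and 2.27, 2.46 and 2.59 in SHRSP, with Apoc3 as the brightest. Of 16 liver genes 3 were not above background on any of the 6 arrays, and of 6 tested 2 were higher and 3 lower. Adrenal markers summed to 0.804, 0.715 and 0.701 in WKY rats and 0.836, 0.992 and 1.13 in SHRSP, with Th as the brightest, 7 of 14 not above background, and 2 higher and 1 lower of 6 tested. Skeletal muscle markers summed to 0.805, 0.816 and 0.981 and to 0.912, 1.22 and 1.23, with Casq1 as the brightest, 6 of 16 not above background, and 3 higher and 0 lower of 6. The SHRSP sums of adrenal markers lay above all WKY sums, while those of muscle overlapped. The adrenal calls were 0 higher and 0 lower without SHRSP array 3, WKY array 1 or WKY array 2, with slide or scan day as a block and within the shared scan day, and 1 and 0 without WKY array 3. Without SHRSP array 1 they were 4 higher and 0 lower, with a median of 0.45 against 0.37 in the main fit. The median of the adrenal genes was 0.04 with slide as a block. The median of the 6 muscle genes was 0.67, and it was 1.18 without SHRSP array 1, where 5 of 8 tested were higher, and 0.37 with slide as a block.

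Red cell markers, brightest at Hba-a1, summed to 139, 135 and 90.4 in WKY rats and 91.3, 124 and 71.2 in SHRSP, with 1 of 7 not above background and 0 of 5 tested past the test. Their median was -0.45, and 0.28 with slide as a block. Without SHRSP array 1 there was 1 higher, and without WKY array 3 there were 1 higher and 2 lower. Immune cell markers, brightest at Lyz2, summed to 11.1, 8.90 and 11.8 and to 15.5, 12.8 and 13.4, without overlap, with 1 higher and 2 lower of 10 and 8 of 19 not above background. Fat markers, brightest at Dgat2, summed to values from 6.30 to 20.6 with overlapping groups, with 2 of 12 not above background and 1 of 10 tested higher. The median of the fat markers was -0.50, and it was -0.12 without SHRSP array 3, -0.17 without WKY array 1 and 0.35 with slide as a block. It was lower still, at -0.94 without SHRSP array 2, -0.77 without WKY array 2 and -1.18 with array weights, where 1 gene was higher and 2 lower. Urothelial markers, brightest at Krt7, summed to 7.21, 6.70 and 7.29 and to 7.44, 9.23 and 7.48, with 1 of 10 not above background and 1 of 9 tested higher, which became 0 without SHRSP array 2 or 3 or WKY array 1 or 2. The part of these markers in the differences above was not tested.

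By chromosome, the highest share of called probes was on chromosome 14, with 12 of 643 (1.87%), against 0.552% of all probes tested, and of 712 probes on the X chromosome and 12 mitochondrial probes 0 were called. Among the called probes with a chromosome in rn4, 23 lay within 1 Mb of a called probe of another name, in 8 groups. On chromosome 10 Haghl, Rgs11, Hba-a3 and an unnamed probe lay between 15051356 and 15581857. On chromosome 11 Kng2l1, Hrg and an unnamed probe lay between 80172931 and 80307689, and on chromosome 14 a group of 4 probes without a symbol lay between 49143924 and 49821926, all of them lower. On chromosome 5 Cyp4a2 and Cyp4a8 were followed by Tspan1, which moved the other way. Rgs11, chosen after its value was seen, was at least 3.74-fold higher beside Hba-a3. Neither the shares nor the grouping were tested.

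The called probes were next followed to 6 weeks, where 165 of 20339 probes (0.811%) were called between the arrays labelled SHRSP and WKY, and 166 of 20416 (0.813%) between those labelled SHR and WKY. These comparisons share the WKY arrays of 6 weeks, but not those of 3 weeks. Of the 111 probes 36 (32.4%) were called again in the same direction with the label SHRSP, and 59 (53.2%) with the label SHR. A total of 33 were called in both, 3 with the label SHRSP only, 26 with the label SHR only and 49 in neither. With either label 0 were called in the opposite direction. Their change from 3 to 6 weeks in SHRSP minus WKY passed the same limits at 44 of the 111 probes. Over all 20682 probes tested for it 310 passed (1.50%), but these shares cannot be compared, since the 111 were selected on a difference that is part of the change.

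Of the 33 probes called in all of these comparisons 19 were higher and 14 lower. Adtrp was among them, at 5.62 at 3 weeks, 5.28 with the label SHRSP at 6 weeks and 5.89 with the label SHR, as were Tspan1, at -2.54, -2.94 and -2.48, and Acox2, at 3.28, 2.82 and 2.80. At these genes the arrays labelled SHR at 3 weeks, which share their WKY arrays with the main comparison, gave 5.93, -2.79 and 3.00. Myo16 was also among the 33, not well above background with either label at either age. Only 1 of the 33 passed the test of the change with age.

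Of the 26 probes called again with the label SHR only 11 were higher and 15 lower, and 21 of them passed the test of the change with age. They include Agtrap, Ephx2, Hba-a3, Haghl, Micb and Zbtb16. Of the 49 probes called in neither 39 were higher at 3 weeks and 10 lower. Cyp4a2 was one of these, at 4.03 at 3 weeks and at -0.01 and 0.04 at 6 weeks. Slco1a1 was at 3.80, 0.12 and 0.00, and Dhrs7l1 at 5.08, 0.61 and 0.66. At 3 weeks the arrays labelled SHR gave 3.64, 3.05 and 3.79 for these genes, with the same WKY arrays.

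**Figure D5:**
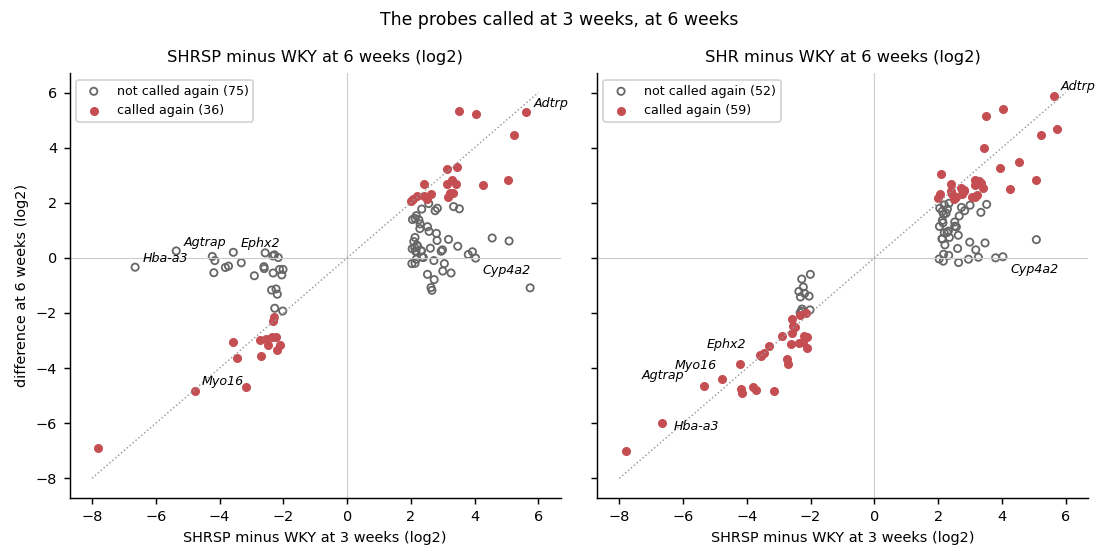
The 111 probes called at 3 weeks, with the difference SHRSP minus WKY at 3 weeks on the horizontal axes and, on the vertical axes, the difference from WKY at 6 weeks with the label SHRSP (left) or SHR (right); the dotted line marks equal differences. On the left 36 probes were called again and Agtrap, Ephx2 and Hba-a3 lie near 0; on the right 59 were called again and these genes lie near the dotted line.

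The medians of the cell division and clock lists were near 0 at 6 weeks. The median of the cell division genes was 0.01 with the label SHRSP and 0.04 with the label SHR, and the median change from 3 to 6 weeks in SHRSP minus WKY was 0.58, against -0.12 over all genes. For Ccnb1 the differences at 6 weeks were 0.13 and 0.03. The clock genes had medians of 0.07 and -0.06 at 6 weeks, and a median change of -0.37. Single clock genes did not all follow the median: Bmal1 was at -1.74 with the label SHRSP at 6 weeks and Dbp at 2.10. Members of lists with only a bound on their fold were on 4 of the 27 lists, and placing them at that bound changed no median.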

How the data were processed

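Kidney RNA was measured on 18 one-colour Agilent arrays. The spot intensity values deposited by the authors came from Feature Extraction 10.5.1.1 per the submitters' processing notes. They were already background-subtracted, with no scaling between arrays. Control spots and spots with outlier flags were left out, spots of a probe were averaged, and log2 signals were scaled by each array's 75th percentile of spots well above background. Probes that were well above background throughout at least 1 group were tested with limma 3.58.1 in R 4.3.3 (with the package data.table, version 1.17.8) over all 6 groups, with Benjamini-Hochberg adjustment. A call needed a change of more than 4-fold and an adjusted p under 0.05. The steps were tested on simulated data.

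Named genes were the 15 highest and 15 lowest called genes with a symbol, up to 4 genes of each list with the largest differences past the test, the list drawn from the study's gene groups and the marker with the brightest probe of each list. Each was given by its brightest probe. Not every gene that this rule picks is reported. Members and lists were chosen with earlier results of these data known. The sample labels mark the 3 arrays of a group as biological replicates.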

Additional observations from a re-analysis of the deposited data

Results flagged for a closer look

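The change of SHRSP minus WKY from 3 to 6 weeks tests a difference between groups, and 95 named genes were tested for it with limma. A total of 16 passed the 4-fold limit and the test, and 51 passed an adjusted p under 0.05. Of all 20682 probes tested 310 (1.50%) passed both limits, and of 12704 genes 660 rose and 2313 fell at an adjusted p under 0.05. These shares cannot be compared, since most named genes were picked for a large difference at 3 weeks, which is part of the change. Groups of 3 arrays were not tested for outlying samples. The change was 5.61 for Agtrap and 3.77 for Ephx2, both lower with the label SHRSP at 3 weeks. Hba-a3, Haghl and Micb were not well above background with that label at 3 weeks, so that their fitted changes of 6.31, 4.28 and 2.20 stand only for at least 20.9-fold, 5.72-fold and 2.37-fold. The change was -4.47 for Dhrs7l1, -4.03 for Cyp4a2, -3.68 for Slco1a1, -3.48 for Hrg, -3.0 for Gclm and -2.26 for Zfp36, all higher with the label SHRSP at 3 weeks. The fitted changes of -3.83 for Zbtb16 and 3.22 for Ryr1 are not measured sizes, and no bound can be given, since neither group was well above background at 6 weeks for Zbtb16 or at 3 weeks for Ryr1. The change of Rxrg was -4.45, and Vegfb and Apoh, not well above background with the label SHRSP at 6 weeks, had fitted changes of -7.91 and -5.83 that stand only for at least 70.3-fold and 19.6-fold. Whether these changes belong to the strains or to labels that differ between the ages was not tested.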

How the results depend on the processing

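After dim signals were lifted to the lowest one that passes on their array 79 probes were called. With normexp background correction 42 probes were called at 3 weeks, 102 for the change with age, 13 again with the label SHRSP and 20 again with the label SHR. With probes well above background on all arrays of both groups these counts were 50, 166, 19 and 25, since fewer probes were tested. A 2-fold limit gave 669 at 3 weeks and 1465 for the change. The count at an adjusted p under 0.05 was 1172 with only the arrays compared, 700 with slide as a block, 3559 with scan day as a block, 9568 with array weights and 836 within the shared scan day. It was 4011 without SHRSP array 3 and 3741 without WKY array 1. Leaving out 1 array at a time gave 115 to 147 called probes, 3741 to 8753 at an adjusted p alone, 249 to 404 for the change, 35 to 36 called again with the label SHRSP and 58 to 62 with the label SHR. Arrays with the same number did not vary together (correlations 0.273, 0.142 and -0.135), and with the replicate block the 5 counts were 111, 5903, 309, 36 and 59. With slide as a random block, chosen after seeing the data like the fit within the shared scan day, 113 were called. Slides fall into 2 unconnected sets, so slide as a block and the shared scan day gave no value for the change or for 6 weeks. Among named genes past the test in at least 1 of the fits compared, signs turned for Gsta3 at another probe (-0.03), for Npas2 at another probe (0.11) and for the antigen transporter Tap2 with slide as a block (0.08). Differences of the same probe past the test in neither fit also turned with slide as a block, to -0.46 for Th, 0.26 for Hba-a1, 0.22 for Dgat2, -0.12 for Egf and -0.14 for Krt7. Kng2l1 in place of Kng2 left the count of that list at 10. The causes were not tested. Dim probes give only bounds, and 3 arrays per group limit all values.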
